A study of Mus musculus with 6 samples.

Results

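Imprinted genes were followed in RNA of GFP cells, treated as interneurons in the paper, that were sorted from the mouse ganglionic eminences (GEs) at E13.5. The cells came from wild-type (WT) embryos and from embryos with a conditional knockout (cKO) of CCP1. A set of 41 imprinted mouse genes was looked up by symbol in a table of 29606 loci, and 39 of them were found. The symbols of Rian and Mirg were not found, because the name cell of the locus that carries them is cut at 255 characters in the table with a value per library. That locus is described separately and is not counted as a member.

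Genomic imprinting restricts the expression of a gene to the allele inherited from the mother or from the father. The choice is set by DNA methylation laid down in the germline at imprinting control regions, which lie in clusters that often hold protein-coding genes and a long noncoding RNA of the opposite parental expression. In the embryo, imprinted genes are known for growth control, placental function and neuronal development, and several of them are imprinted in only some tissues. The reads were not assigned to parental alleles, so each value below is the sum of both alleles and imprinting itself was not measured.

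The series holds 3 WT libraries, whose CCP1 alleles are Wt/Wt, and 3 CCP1 cKO libraries, whose CCP1 alleles are lox/lox. Both genotypes carry the transgene Dlx5,6 CRE GFP. It drives a Cre-GFP fusion from Dlx5/6 regulatory sequence in the GABAergic lineage of the ventral forebrain. The labels give the strain MF1, whereas the methods derive the floxed allele from embryonic stem cells of another strain and breed it to C57BL/6N mice. RNA was taken from the cells right after sorting. CCP1 is a deglutamylase that removes glutamate side chains from tubulin and other proteins. It also trims glutamate stretches that are encoded at the carboxy end of some proteins. The study used this design to ask what loss of CCP1 does to migrating cortical interneurons. Expression is given as FPKM, fragment numbers scaled to transcript length and library size, so levels of different genes can be set side by side per length.

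The labels were checked on Agtpbp1, which encodes CCP1. Agtpbp1 measured 20.01, 18.9 and 18.1 FPKM in the WT libraries and 9.68, 10.1 and 9.56 FPKM in the CCP1 cKO libraries. The genotypes did not overlap, and the CCP1 cKO mean reached 51.5% of that of WT. This value covers the whole locus, whereas the floxed allele loses only some exons, which the paper measured on their own. It therefore does not give the share of intact transcript. On the log2 scale the change was -0.89 (SE 0.06, limma adjusted p = 0.00449). Without CCP1 cKO replicate 3 the log2 fold change was -0.88 with an adjusted p of 0.0585.

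Marker genes were read for the whole table. The 12 interneuron and GE markers summed to 1043 to 1182 FPKM in WT and 1099 to 1219 FPKM in CCP1 cKO libraries. Of 9 endothelial markers, 1 reached a mean of 1 FPKM (Esam, at 22.8 FPKM), and of the 6 pericyte, 8 meningeal and 10 microglial markers none did. Of 6 erythroid markers 3 did (Hbb-y highest, at 11.6 FPKM), with sums of 18.7 to 33.6 FPKM in WT and 11.7 to 31.2 FPKM in CCP1 cKO libraries, and of 5 choroid plexus markers 1 did (Otx2, at 1.76 FPKM). The striatal projection neuron markers, 6 of 8 at 1 FPKM or more, summed to 270.01 to 309 FPKM. The radial glial markers summed to 412 to 475 FPKM, the 10 cell cycle markers to 615 to 775 FPKM and the cortical excitatory markers to 10.9 to 44.2 FPKM. The sorted RNA thus held markers of progenitors, striatal projection neurons and, at lower levels, excitatory neurons and blood beside those of interneurons. Their part in the members' values was not tested. In such bulk RNA, fewer cells of a type and less RNA per cell cannot be told apart. Absolute depth is unknown, and relative depth, set to 1 for CCP1 cKO replicate 1, ranged from 0.726 (WT replicate 1) to 1.14 (WT replicate 3).

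Several member loci are hosts of microRNAs, and the mature sequences of these are shown because they are the processed products that such host RNAs carry. The Rian and Mirg locus names 34 microRNA genes, of which 32 matched a RefSeq entry (GRCm38.p6), with 58 mature sequences. Within these, 5 seeds (bases 2 to 8, in capitals) were shared by 2 mature microRNAs each. These 10 lie on the plus strand of chromosome 12, between positions 109709065 and 109743749.
mmu-miR-379-3p: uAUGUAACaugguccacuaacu
mmu-miR-411-3p: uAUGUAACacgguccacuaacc
mmu-miR-379-5p: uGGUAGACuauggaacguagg
mmu-miR-1193-5p: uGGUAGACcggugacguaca
mmu-miR-758-5p: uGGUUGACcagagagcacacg
mmu-miR-1197-5p: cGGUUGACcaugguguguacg
mmu-miR-494-5p: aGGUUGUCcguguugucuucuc
mmu-miR-410-5p: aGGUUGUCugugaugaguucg
mmu-miR-376b-5p: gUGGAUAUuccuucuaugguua
mmu-miR-376c-5p: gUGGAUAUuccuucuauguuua
The members of a seed pair differ outside the seed. The Meg3 locus also names 9 microRNA genes, with 17 mature sequences, and the Nespas locus names 2, with 4. Those sequences are not shown. H19 and Mest each host 1 microRNA gene inside the annotated gene and on its strand, Mir675 on the minus strand of chromosome 7 and Mir335 on the plus strand of chromosome 6. Their 5p arms are given with the seed in capitals.
mmu-miR-675-5p: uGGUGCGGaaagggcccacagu
mmu-miR-335-5p: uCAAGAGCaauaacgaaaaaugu
The libraries measured long RNA, so the values below are those of the host loci and not of the mature microRNAs.

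Most imprinted genes were detected in the sorted cells, at widely differing levels. Of the 39 members, 34 had a mean of at least 1 FPKM over the 6 libraries and entered the test, 26 had at least 10 FPKM and 10 had at least 50 FPKM. The median mean of all 39 members was 13.8 FPKM, and 26 members lay above 9.83 FPKM, the median mean of the 13200 loci tested. The members together held 0.694% to 0.949% of all FPKM in a library, and Nnat alone was 52.3% to 58.9% of the members' sum.

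**Figure D1:**
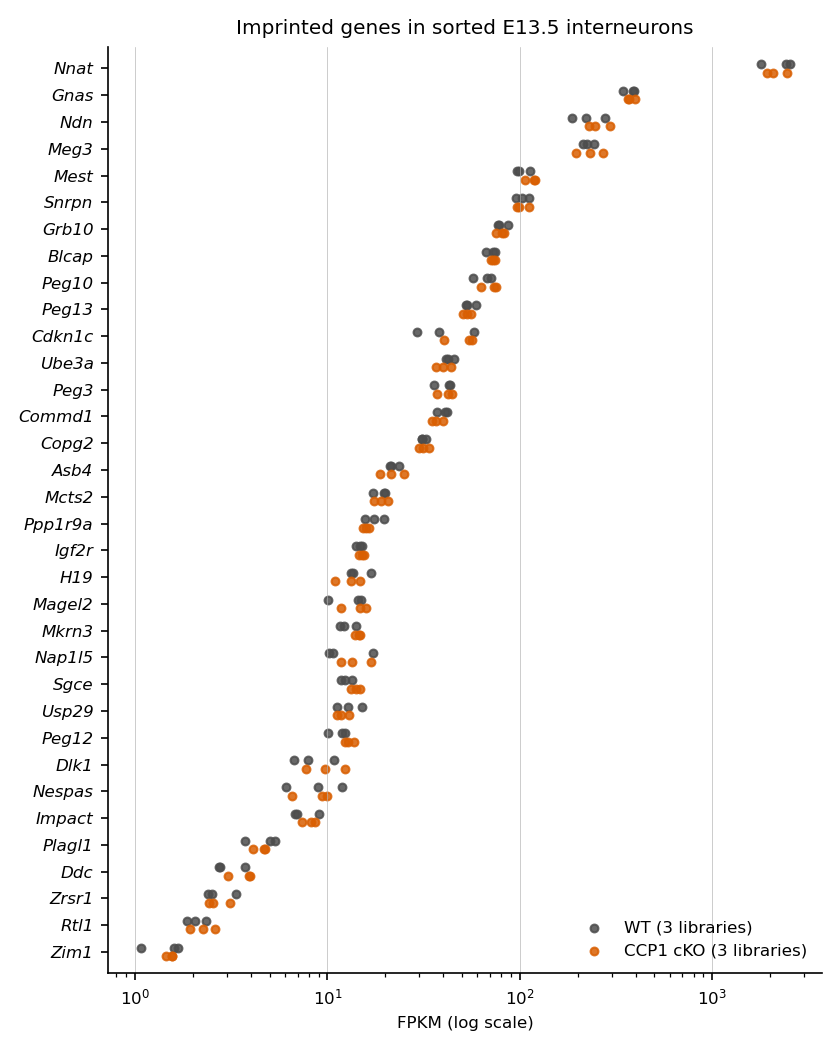
FPKM, on a log scale, of the 34 imprinted genes that entered the test, ordered by mean. Each point is a library (grey, WT; orange, CCP1 cKO). Nnat lies between 1782 and 2521 FPKM, apart from every other member, and WT and CCP1 cKO points overlap in all genes but Peg12.

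The order of levels was steep at the top. Nnat, Gnas, the pair Ndn and Meg3, and the pair Mest and Snrpn formed steps whose ranges over the 6 libraries did not touch. Ndn and Meg3 were not separated, with Ndn above Meg3 in 2 of 6 libraries. Mest was above Snrpn in 5 of 6 libraries, but their ranges overlapped. Grb10 was above Blcap in all libraries, and Blcap and Peg10 crossed, each higher in 3 libraries. From Asb4 (21.9 FPKM) down to Impact (7.84 FPKM), the range of every gene overlapped that of the next gene in the order.

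No imprinted gene passed the test between genotypes. With limma on log2(FPKM + 1), 0 of 34 members were called at an adjusted p of 0.05, and 0 had an unadjusted p under 0.05. Over all loci tested, 0.0909% were called (12 loci) and 4.62% had an unadjusted p under 0.05. The adjusted p of the members ran from 0.976 to 0.998. The CCP1 cKO mean of log2 values was higher in 21 members and lower in 13, and the median log2 fold change was 0.02, beside -0.02 over all loci tested. The spread of the libraries limits what can be said. The 95% interval of the log2 fold change lay within 0.5 of 0 for 27 members and reached past 0.5 in either direction for 7 members. The CCP1 cKO and WT libraries did not overlap in 1 member, Peg12, whereas 9.8% of all loci tested did not overlap and 3.98% did so with CCP1 cKO higher.

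**Figure D2:**
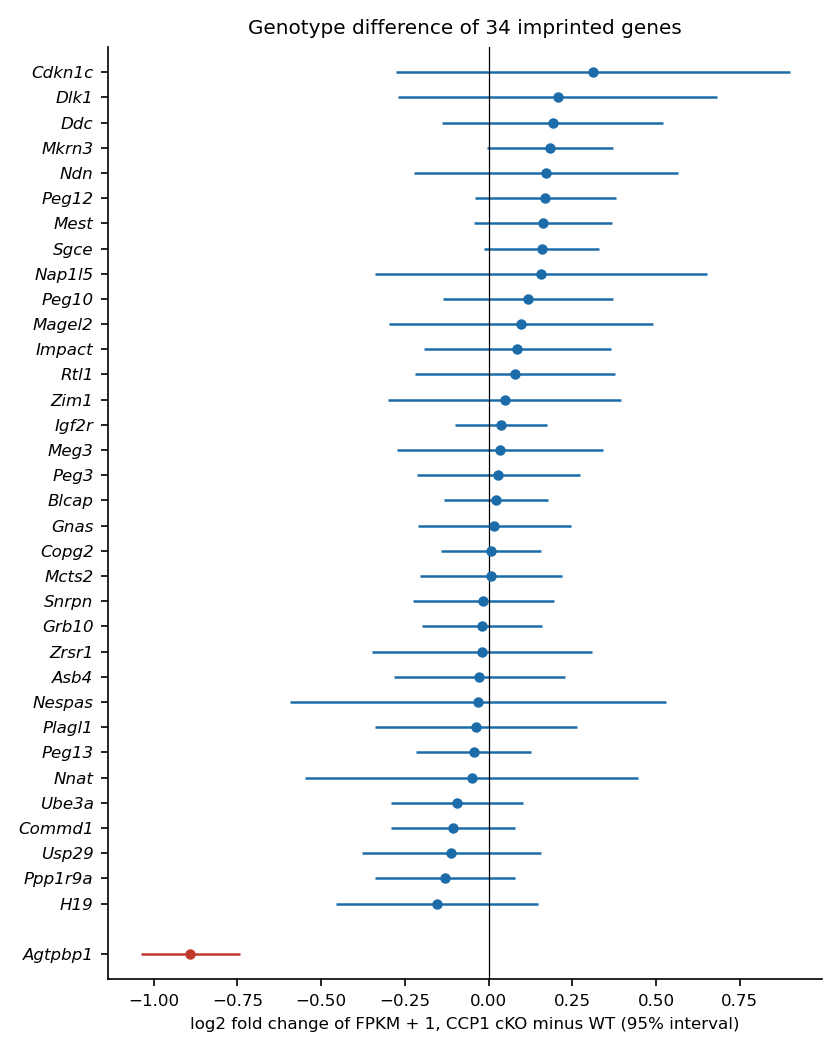
Log2 fold change of FPKM + 1 (CCP1 cKO minus WT) with its 95% interval from limma for the 34 members tested, ordered by value, and in red for Agtpbp1, the targeted gene. All 34 intervals include 0, and the points run from -0.16 for H19 to 0.31 for Cdkn1c, whereas Agtpbp1 lies at -0.89.

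Among the noncoding RNAs, Meg3 was the most abundant. Meg3 is a maternally expressed RNA of the Dlk1-Dio3 region (chr12:109541001-109571726, plus strand, GRCm38), and measured 212, 242 and 224 FPKM in WT and 195, 232 and 271 FPKM in CCP1 cKO libraries. The lowest and the highest value were both CCP1 cKO, and the log2 fold change was 0.03 (95% interval -0.27 to 0.34). The locus that carries Rian and Mirg, which follow Meg3 on the same strand, measured 176, 159 and 178 FPKM in WT and 189, 157 and 185 FPKM in CCP1 cKO libraries. Its log2 fold change was 0.05 (95% interval -0.19 to 0.28, limma adjusted p = 0.982). Replicate 2 was lowest in both genotypes there. Within a library, this locus stood at 0.831, 0.659 and 0.796 of Meg3 in WT and at 0.967, 0.677 and 0.682 of Meg3 in CCP1 cKO.

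H19, a maternally expressed RNA (chr7:142575529-142578143, minus strand), measured 13.6, 13.3 and 16.8 FPKM in WT and 13.3, 14.7 and 10.98 FPKM in CCP1 cKO libraries. The extremes came from the replicate 3 libraries of either genotype, and the log2 fold change of -0.16 (95% interval -0.46 to 0.15) was the lowest among the members. H19 is host of Mir675, shown above. Peg13, a paternally expressed RNA from an intron of Trappc9, was even across libraries, with 59.4, 52.5 and 53.1 FPKM in WT and 55.7, 50.9 and 53.2 FPKM in CCP1 cKO. Peg13 had a log2 fold change of -0.04 (95% interval -0.22 to 0.13). Its host Trappc9, a trafficking factor, measured 23.5 FPKM in the WT mean and 23.1 FPKM in the CCP1 cKO mean, below Peg13.

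Nespas, a paternally expressed antisense RNA of the Gnas region, varied more. It measured 6.07, 11.9 and 8.95 FPKM in WT and 6.52, 9.93 and 9.33 FPKM in CCP1 cKO libraries. Both replicate 1 libraries were lowest, and the log2 fold change was -0.03 (95% interval -0.59 to 0.53). Kcnq1ot1, the paternally expressed antisense RNA of the Kcnq1 region, had a mean of 0.954 FPKM and stayed below the minimum for the test, with 0.643 to 1.66 FPKM in WT and 0.712 to 1.09 FPKM in CCP1 cKO. Airn, which is antisense to Igf2r, measured at most 0.110 FPKM on its annotated plus strand. A second locus of that name on the minus strand, which is the strand of Igf2r, measured 1.74 to 2.62 FPKM.

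The 6 growth factor signalling genes had a median mean of 10.7 FPKM, and ranged from near absence to the level of Grb10, at 80.0 FPKM. Igf2, the paternally expressed growth factor that neighbours H19, measured 0.0496 to 0.352 FPKM in WT and 0.0627 to 0.150 FPKM in CCP1 cKO libraries. H19 exceeded Igf2 by 37.8 to 338 times within a library. Igf2 lay below the minimum of 1 FPKM for the test, so the size of this ratio depends on small differences near 0. Igf2r, the receptor that carries IGF2 to lysosomes, is maternally expressed in many tissues. It was the least variable member, with 14.8, 15.1 and 14.1 FPKM in WT and 15.1, 15.4 and 14.6 FPKM in CCP1 cKO. For Igf2r the log2 fold change was 0.04 (95% interval -0.10 to 0.18). The receptor was thus present in all libraries with almost no transcript of its ligand.

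Grb10, an adaptor that restrains insulin and IGF receptor signalling, is maternally expressed in many tissues and paternally in neurons. It measured 78.2, 76.5 and 86.9 FPKM in WT and 82.3, 80.9 and 75.0 FPKM in CCP1 cKO libraries, with a log2 fold change of -0.02 (95% interval -0.20 to 0.16). Dlk1, a paternally expressed transmembrane protein of the Notch ligand family, measured 6.71 to 10.8 FPKM in WT and 7.74 to 12.4 FPKM in CCP1 cKO. Phlda2, a placental growth regulator, was listed at 0 in all 6 libraries.

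Peg12, an intronless gene of the Frat family that acts on Wnt signalling, was the only member whose genotypes did not overlap. It measured 11.9, 10.1 and 12.3 FPKM in WT and 12.8, 12.3 and 13.8 FPKM in CCP1 cKO libraries. The gap was narrow, since WT replicate 3 lay at 12.28 FPKM and CCP1 cKO replicate 2 at 12.31 FPKM. The log2 fold change was 0.17 (95% interval -0.04 to 0.38), with a limma adjusted p of 0.976. A two-sided exact permutation test gave p = 0.1, the smallest that 3 against 3 libraries can give. A second locus named Peg12, on the plus strand, was not used. It measured 0.786 to 1.35 FPKM in WT and 1.33 to 1.94 FPKM in CCP1 cKO, so its genotypes overlapped.

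Cell cycle and transcription genes included the most variable member. Cdkn1c, a maternally expressed inhibitor of cyclin-dependent kinases that holds cells out of the cycle (chr7:143458339-143461050, minus strand), measured 57.7, 29.1 and 37.9 FPKM in WT and 56.3, 40.5 and 54.2 FPKM in CCP1 cKO libraries. WT replicate 1 was the highest library, and the other 2 WT libraries were the lowest of all 6. The log2 fold change was 0.31 (95% interval -0.28 to 0.90), the highest among the members. This value rested on single libraries, with 0.09 without WT replicate 2 and 0.57 without WT replicate 1, where the limma adjusted p was still 0.617.

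Ndn, which encodes the paternally expressed protein necdin, known to promote differentiation of postmitotic neurons (chr7:62346569-62350262, plus strand), was at the top of this group. It measured 278, 187 and 221 FPKM in WT and 294, 228 and 246 FPKM in CCP1 cKO libraries, with replicate 1 highest in both genotypes. The log2 fold change was 0.17 (95% interval -0.22 to 0.57). Peg3, a paternally expressed zinc finger gene, measured 43.5, 42.6 and 35.7 FPKM in WT and 44.6, 37.1 and 42.5 FPKM in CCP1 cKO, with a log2 fold change of 0.03 (95% interval -0.22 to 0.27).

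Plagl1, a zinc finger regulator of other imprinted genes, was low, at 5.35, 5.002 and 3.74 FPKM in WT and 4.69, 4.10 and 4.76 FPKM in CCP1 cKO libraries. The difference between genotypes was -0.04 on the log2 scale (95% interval -0.34 to 0.26). Blcap, the host gene of Nnat, hardly varied, with 74.1, 66.7 and 72.9 FPKM in WT and 70.7, 72.1 and 73.8 FPKM in CCP1 cKO. For Blcap the log2 fold change was 0.02 (95% interval -0.13 to 0.18). Zim1, a maternally expressed zinc finger gene beside Peg3, was at 1.07 to 1.68 FPKM over the 6 libraries.

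Membrane, enzyme and trafficking genes held the highest levels. Nnat, the paternally expressed gene of the membrane protein neuronatin (chr2:157560078-157562522, plus strand, inside an intron of Blcap), measured 2521, 1782 and 2412 FPKM in WT and 2431, 1928 and 2079.5 FPKM in CCP1 cKO libraries. Replicate 2 was lowest in both genotypes. The log2 fold change was -0.05 (95% interval -0.55 to 0.45), one of the wider intervals among the members. Gnas, which encodes the stimulatory G protein alpha subunit, measured 391, 342 and 389 FPKM in WT and 399, 370.1 and 365 FPKM in CCP1 cKO. The locus spans several annotated starts of Gnas, and the value sums the transcripts from all of them. Gnas had a log2 fold change of 0.02 (95% interval -0.21 to 0.25).

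Mest, a paternally expressed gene of the hydrolase fold family and the host of Mir335, measured 113, 98.7 and 96.3 FPKM in WT and 118, 107 and 119.8 FPKM in CCP1 cKO libraries. WT replicate 1 lay above CCP1 cKO replicate 2, so the genotypes overlapped. The log2 fold change was 0.16 (95% interval -0.04 to 0.37). Copg2, a coatomer subunit gene that overlaps Mest on the opposite strand, measured 30.9 to 32.5 FPKM in WT and 30.0 to 33.5 FPKM in CCP1 cKO. Sgce, encoding epsilon-sarcoglycan, measured 11.8 to 13.4 FPKM in WT and 13.2 to 14.8 FPKM in CCP1 cKO, with a log2 fold change of 0.16 and an unadjusted limma p of 0.0649. Ppp1r9a, which encodes the actin-binding protein neurabin, had 15.6 to 19.6 FPKM in WT and 15.3 to 16.5 FPKM in CCP1 cKO. Ddc, the aromatic amino acid decarboxylase gene, was at 2.73 to 3.98 FPKM over all libraries, and Dio3, a thyroid hormone deiodinase gene, at 0.176 to 0.586 FPKM.

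Genes derived from retrotransposons or by retroposition ranged widely. Peg10, a paternally expressed gene derived from a retrotransposon (chr6:4747306-4760517, plus strand), measured 67.3, 70.4 and 57.1 FPKM in WT and 73.3, 62.8 and 75.4 FPKM in CCP1 cKO libraries, with a log2 fold change of 0.12 (95% interval -0.13 to 0.37). Nap1l5, a retrogene in an intron of Herc3, measured 17.2, 10.2 and 10.6 FPKM in WT and 16.8, 11.8 and 13.4 FPKM in CCP1 cKO. Replicate 1 was highest in both genotypes, and the log2 fold change was 0.16 (95% interval -0.34 to 0.65). Leaving out single libraries moved it from 0.03 (without CCP1 cKO replicate 1) to 0.38 (without WT replicate 1). Its host Herc3, a ubiquitin ligase gene, measured 3.66 to 4.93 FPKM, below Nap1l5 in every library. Mcts2 lies in the same way inside H13, and measured 17.2 to 20.7 FPKM while H13 measured 26.7 to 39.7 FPKM. Zrsr1 (2.38 to 3.36 FPKM), a splicing factor retrogene in an intron of Commd1, and Rtl1 (1.86 to 2.60 FPKM), a retrotransposon-derived gene on the strand opposite to Meg3, were low.

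Ubiquitin and protein turnover genes came closest to the threshold with Mkrn3. This paternally expressed makorin ring finger gene measured 11.7 to 14.04 FPKM in WT and 13.9 to 14.8 FPKM in CCP1 cKO libraries. On the log2 scale the difference was 0.18 (95% interval -0.01 to 0.37), and WT replicate 1 reached into the CCP1 cKO range. The limma p of Mkrn3 was 0.0559 before and 0.976 after adjustment over all loci, and a two-sided exact permutation test gave 0.2. A second locus named Mkrn3, on the same strand, was not used. It measured 1.47 to 2.46 FPKM in WT and 1.88 to 2.91 FPKM in CCP1 cKO. Ube3a, a ubiquitin ligase gene that is maternally expressed in mature mouse neurons, measured 41.1 to 45.4 FPKM in WT and 36.7 to 44.1 FPKM in CCP1 cKO. Commd1 measured 37.1 to 41.8 FPKM and 34.8 to 40.1 FPKM, Asb4 21.1 to 23.5 FPKM and 18.7 to 25.0 FPKM, Magel2 10.1 to 14.97 FPKM and 11.7 to 15.8 FPKM, and Usp29 11.2 to 15.2 FPKM and 11.3 to 12.9 FPKM, in WT and CCP1 cKO respectively. All of these ranges overlapped.

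Of the RNA processing and translation genes, Snrpn shares its locus with Snurf, and the value stands for both. It measured 112, 103 and 95.8 FPKM in WT and 111, 99.5 and 96.4 FPKM in CCP1 cKO libraries. The genotypes spanned almost the same range, and the log2 fold change was -0.02 (95% interval -0.22 to 0.19). Impact, a paternally expressed regulator of the kinase GCN2, measured 9.09, 6.95 and 6.76 FPKM in WT and 7.40, 8.17 and 8.65 FPKM in CCP1 cKO. Its log2 fold change was 0.09 (95% interval -0.19 to 0.36).

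No group of parental background held a called gene. None of 20 tested paternally expressed, 6 maternally expressed and 8 tissue-dependent members was called or had an unadjusted limma p under 0.05, and their median log2 fold changes were 0.08, 0.04 and -0.01. The difference between these groups was not tested. The groups rest on reported parental expression, with Igf2r counted as maternally expressed, and parental expression was not measured here. Among regions, the 6 members of central chromosome 7 (from Ube3a to Peg12) had a median of 0.13, with 4 higher and 2 lower in the CCP1 cKO mean. The 5 members of distal chromosome 2 had a median of 0.01.

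Libraries of the same genotype differed among themselves. The median SD within a genotype was 0.14 on the log2(FPKM + 1) scale for the members and 0.12 for all loci tested. Over loci with at least 10 FPKM it was 0.11 for the members and 0.10 for all loci. Igf2r, Blcap and Copg2 were the least variable, with highest values 1.10, 1.11 and 1.12 times the lowest. Cdkn1c (1.98 times), Nespas (1.95 times), Dlk1 (1.84 times) and Nap1l5 (1.69 times) varied most.

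**Figure D3:**
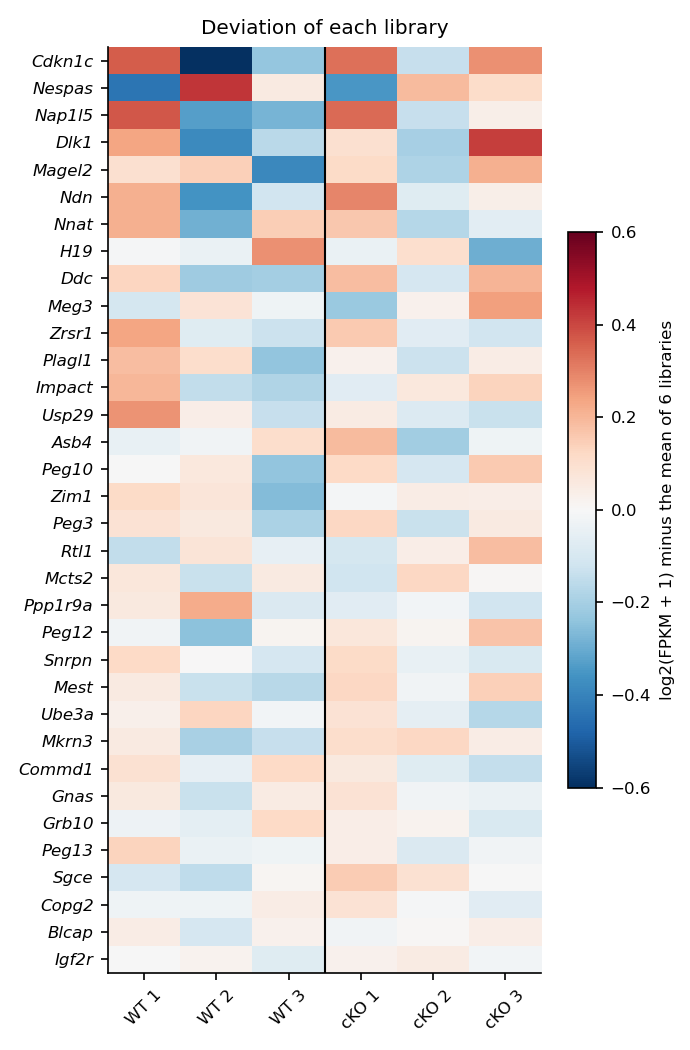
Deviation of each library from the mean of the 6 libraries, on the log2(FPKM + 1) scale, for the 34 members tested, ordered by their SD within a genotype (red, above the mean; blue, below). Cdkn1c, Nap1l5 and Ndn are high in replicate 1 of both genotypes, where Nespas is low, and the bottom rows (Blcap, Igf2r) are nearly white.

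WT replicates 2 and 3 held many of the lowest values. WT replicate 2 was the lowest library for 12 of 34 members (35.3%, beside 24.7% of all loci tested), and WT replicate 3 for 11 members (32.4%, beside 14.1%). WT replicate 1 was the highest for 11 members (32.4%, beside 16.5%), and CCP1 cKO replicate 3 for 8 (23.5%, beside 9.42%). The cortical excitatory markers, of which 8 of 9 reached 1 FPKM, summed to 38.2, 44.2 and 10.9 FPKM in WT and to 33.8, 25.5 and 16.8 FPKM in CCP1 cKO libraries. The 10 highest loci held 28.3%, 22.2% and 16.4% of all FPKM in WT and 13.2%, 25.5% and 24.6% in CCP1 cKO. The part of these markers, of depth and of the highest loci in the members' values was not tested.

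Ratios within a library do not depend on scaling between libraries, and were compared for neighbouring members. Of 15 pairs listed, 10 had both genes at a mean of at least 1 FPKM, and in none of them did the genotypes fall apart. Two-sided exact permutation tests gave p from 0.3 to 1, where 0.1 is the smallest possible, and all adjusted p were 1 over the 10 pairs. Meg3 stood at 19.6, 36.0 and 28.1 times Dlk1 in WT and at 20.1, 30.0 and 21.9 times in CCP1 cKO, lowest in replicate 1 of both genotypes. Nnat stood at 34.05, 26.7 and 33.1 times Blcap in WT and at 34.4, 26.7 and 28.2 times in CCP1 cKO. Nnat lies within Blcap on the opposite strand, and was at least 26.7 times as high in every library.

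**Figure D4:**
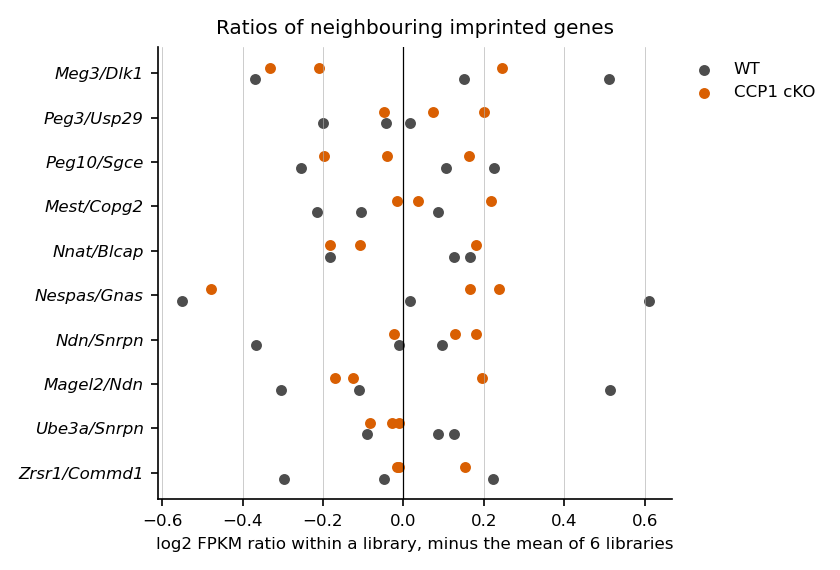
Log2 ratio of the FPKM of neighbouring imprinted genes within each library, centred on the mean of the 6 libraries (grey, WT; orange, CCP1 cKO). WT and CCP1 cKO points are mixed in all 10 pairs, and Ube3a/Snrpn is the tightest while Nespas/Gnas is the widest.

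The ratio of Mest to Copg2 was 3.65, 3.19 and 2.96 in WT and 3.52, 3.40 and 3.99 in CCP1 cKO libraries. The difference of the log2 ratio was 0.16 with an SD within a genotype of 0.14. Ndn stood at 2.49, 1.81 and 2.31 times Snrpn in WT and at 2.64, 2.29 and 2.55 times in CCP1 cKO, a log2 difference of 0.19 with an SD of 0.19. Peg3 stood at 2.86, 3.32 and 3.19 times Usp29 in WT and at 3.45, 3.17 and 3.77 times in CCP1 cKO, a log2 difference of 0.15 with an SD of 0.12. In each of these pairs a WT library lay inside the CCP1 cKO range.

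A list of 20 genes tied to imprint maintenance and DNA methylation was read. It also holds Tet1, Tet2, Tet3, Dnmt3a and Dnmt3b, so its counts are not of maintenance factors alone. Of the 20 genes, 18 reached 1 FPKM, 0 were called by limma in either direction and 0 had an unadjusted p under 0.05. The CCP1 cKO mean was lower for 16 of these 18 and higher for 2, with a median log2 fold change of -0.08, beside -0.02 over all loci. This split of directions was not tested. Trim28, the corepressor that is recruited to methylated imprinting control regions, had a mean of 237 FPKM, and Dnmt1, the maintenance methyltransferase, 58.8 FPKM. Zfp57, the zinc finger protein that brings Trim28 to these regions, measured 71.6, 79.5 and 79.5 FPKM in WT and 64.0, 70.3 and 71.9 FPKM in CCP1 cKO libraries. Its genotypes overlapped at CCP1 cKO replicate 3 (log2 fold change -0.16, 95% interval -0.34 to 0.02, limma adjusted p = 0.976). Dnmt3l and Dppa3, which act in germ cells and the early embryo, were listed at 0 in all libraries.

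In mice, ZFP57 is known to bind the methylated form of the hexamer TGCCGC, and promoters were searched for this motif on both strands, as the only motif. RefSeq promoter windows (GRCm38.p6, 250 bases before to 50 after a start) matched 31 of the 39 members, with 48 windows. The hexamer was found for 12 of these 31 members (38.7%), beside 13.1% of all genes with a window. By window the shares were 27.1% for the members and 11.6% of 32851 in all. Windows of members also held more CpG, with a median of 14.5 beside 7 in all windows, and the part of CpG content in the share was not tested. Windows are shown for Nnat, the most abundant member, and for Mest and Nap1l5, which hold the motif at 2 positions each, with the matches of either strand in capitals.
Nnat, chr2:157559828-157560127, plus strand: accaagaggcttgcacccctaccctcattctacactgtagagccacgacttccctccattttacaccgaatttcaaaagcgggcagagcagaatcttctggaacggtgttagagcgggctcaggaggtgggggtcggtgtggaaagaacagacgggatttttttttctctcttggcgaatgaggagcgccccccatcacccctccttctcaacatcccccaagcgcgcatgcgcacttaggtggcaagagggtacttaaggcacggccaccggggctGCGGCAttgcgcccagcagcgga
Mest, chr6:30737800-30738099, plus strand: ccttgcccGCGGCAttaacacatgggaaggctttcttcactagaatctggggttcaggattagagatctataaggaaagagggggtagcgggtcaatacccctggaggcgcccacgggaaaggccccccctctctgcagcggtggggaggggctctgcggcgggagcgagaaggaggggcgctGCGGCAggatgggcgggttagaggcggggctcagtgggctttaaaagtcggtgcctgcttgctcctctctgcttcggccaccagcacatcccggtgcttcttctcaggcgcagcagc
Nap1l5, chr6:58907077-58907376, minus strand: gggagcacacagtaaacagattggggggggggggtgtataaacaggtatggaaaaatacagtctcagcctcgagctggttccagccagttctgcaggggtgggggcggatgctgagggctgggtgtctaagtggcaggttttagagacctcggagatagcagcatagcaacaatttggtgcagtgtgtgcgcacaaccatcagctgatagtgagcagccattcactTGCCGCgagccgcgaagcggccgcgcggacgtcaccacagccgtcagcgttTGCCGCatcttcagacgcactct
A match describes these letters only, since neither methylation nor binding was measured.

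Partners of imprinted growth genes were read from a list of 15 IGF and insulin genes, of which 11 reached 1 FPKM, 0 were called by limma and 0 had an unadjusted p under 0.05. Their median log2 fold change was 0.01. Igfbp2, a secreted IGF-binding protein gene, had the highest mean (39.9 FPKM), and Igf1r, the receptor for IGF1 and IGF2, measured 29.0 to 38.8 FPKM in WT and 29.3 to 30.2 FPKM in CCP1 cKO libraries. Ins2, itself imprinted in the yolk sac, was listed at 0 throughout, and Igf1 stayed at or below 0.0875 FPKM. The IGF receptors were thus measured in cells in which both IGF ligands were near 0.

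Other genes of the imprinted regions, 33 in the list of which 32 were found on 30 loci, had 18 loci at 1 FPKM or more. By limma 0 of these 18 loci were called, and 2 had an unadjusted p under 0.05, beside 4.62% of all loci tested. The median log2 fold change of the 18 was -0.10, beside -0.02 over all loci tested. Begain, a postsynaptic protein gene near Dlk1, was 1 of the 2, with a log2 fold change of -0.17 and a limma adjusted p of 0.976. Nap1l4, a histone chaperone gene beside the Cdkn1c region, had the highest mean, at 83.7 FPKM, and Kcnq1, the sense partner of Kcnq1ot1, did not exceed 0.0312 FPKM in any library.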

How the data were processed

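RNA-seq was done by the authors on ribosome-depleted total RNA of FACS-sorted GFP cells (papain, stranded library kit). The deposited values are FPKM per library and locus, made by the authors with Bowtie2 and Cuffdiff on mm10. Program versions and the annotation were not given in the sources used here. Group values, fold changes, p-values and isoform values of the authors were not used, other than to read a full name cell and to check member means. Absolute depth is unknown.

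Columns were joined to samples by name. Where a symbol occurred on several loci the longest was taken, then the locus on the annotated strand, then the highest. Strand was read from locus numbering, which gave the GENCODE M21 strand at 99.96% of 19955 loci. Positions are on GRCm38, which is mm10. Loci whose mean was 1 FPKM or more (13200) were fitted on the log2(FPKM + 1) scale with limma 3.58.1 (R 4.3.3, eBayes with trend). P-values were adjusted by Benjamini-Hochberg over these loci and called under 0.05. Fold changes on this scale understate the change of low genes. The procedure was tested on simulated data. Ratios were tested by two-sided exact permutation over libraries. Alternatives were other pseudocounts (0.1, 0.5), filters (none, 5 FPKM) and scalings, no trend, the replicate number as a block, other locus choices and left-out libraries. Sequences came from RefSeq (GRCm38.p6). Other steps used Python 3.11.15 with SciPy 1.17.1, NumPy 2.4.6, Matplotlib 3.10.9 and pandas 2.3.3.

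Values per library were given for members with a mean of at least 50 FPKM, the highest member of each region, members with an unadjusted p under 0.05 or genotypes that do not overlap, and noncoding RNAs of at least 1 FPKM. The members and lists were chosen with earlier results of these data known. The labels do not say that each library is a separate embryo. The paper's legend for FPKM values of the sorted cells counts embryos, each from a different female. Here n counts libraries, and p-values measure the spread between them, which may be partly technical. Loci that overlap or share sequence can share fragments. The values of 1 listed gene of the imprinted regions are not reported here.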

Additional observations from a re-analysis of the deposited data

How the results depend on the processing

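No imprinted gene was called under any of 19 alternatives, no gene of the 3 other lists under any of 16, and the members' median log2 fold change stayed between 0.01 and 0.05. Counting the Rian and Mirg locus as a member, chosen after seeing the data, was among these. The smallest adjusted p of any member was 0.569 (Mkrn3 without WT replicate 1, limma), and 7 of the 34 members tested (20.6%) had an unadjusted limma p under 0.05 in at least 1 setting, beside 18% of all loci tested. Over all loci, 26 were called after rescaling to TPM, and 5 to 16 when libraries were left out, with 5 without CCP1 cKO replicate 3. Members whose genotypes do not overlap numbered 3 with equal medians (9.55% of all loci) and 5 with quantile normalization (10.1% of all loci), and 2 to 11 with libraries left out, where 15.5% to 36.2% of all loci did not overlap because fewer libraries remain. With libraries left out the Agtpbp1 log2 fold change ran from -0.92 to -0.85, with an adjusted p of 0.0585 without CCP1 cKO replicate 3 and 0.0806 without both replicate 1 libraries. The sign changed under at least 1 alternative for 10 of the 19 members whose libraries are given (Meg3, Snrpn, Grb10, Gnas, Nnat, Plagl1, Nespas, Peg3, Blcap and Peg13), none of them called. With libraries left out the log2 fold change ran from -0.26 to 0.17 for Nespas, from 0.04 to 0.32 for Ndn and from -0.24 to -0.05 for H19.

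Replicate numbers are shared between genotypes in the labels. Deviations of same-numbered libraries correlated at 0.32, 0.11 and 0.04, and that of replicate 1 was the highest between any WT and CCP1 cKO library. WT replicate 3 correlated best with CCP1 cKO replicate 2 (0.17), and the numbers were not taken as pairs. With the replicate number as a block, 16 loci and 0 members were called. Cdkn1c then had an unadjusted limma p of 0.0453 and an adjusted p of 0.728. The wide intervals of Cdkn1c, Nespas and Nnat limit what 3 libraries per genotype can show, and absolute depth is unknown.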
